A study of Mus musculus with 12 samples.

Results

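The TNF receptor-associated factors (TRAFs), the cellular inhibitors of apoptosis Birc2 (cIAP1) and Birc3 (cIAP2), and the TRAF-binding protein Tank were followed at the RNA level in cultured mouse pancreatic cancer cells. The members were Traf1, Traf2, Traf4, Traf5, Traf6, Birc2, Birc3 and Tank, chosen by name, and every probe set whose platform annotation gave one of these names and no other was used. They came to 8 genes and 17 probe sets, of 18193 genes with such a probe set and 45037 probe sets tested. Traf6 had 5 probe sets, Traf1, Traf4, Traf5, Birc3 and Tank had 2 each, and Traf2 and Birc2 had 1 each.

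TRAF proteins are adaptors that bind the cytoplasmic tails of TNF receptor family members, or of the adaptors of Toll-like and interleukin 1 receptors, and recruit kinases and ubiquitin ligases to them. TRAF2 brings the cIAP ligases to the TNF receptor, where the ubiquitin chains they build recruit the IκB kinases that release NFκB. With no ligand bound, the TRAF and cIAP complex keeps the NFκB-inducing kinase low and so holds back the noncanonical arm, and in pancreatic cancer cells NFκB is known for driving inflammatory and survival genes. Traf1, Traf2 and Birc3 are themselves textbook targets of NFκB.

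The question of the comparisons was what mutant p53, as opposed to loss of p53, does to gene expression in these cells. Cells named mt-CCs came from a tumor of Pdx1-Cre mice with LSL-K-ras G12D/+ and an LSL-Trp53 R172H/+ allele. Cells named fl-CCs, which are p53-null, came from a Pdx1-Cre tumor with LSL-K-ras G12D/+ and LSL-Trp53 fl/+ instead. The fl-CCs + p53 R175H were fl-CCs transfected with human mutant p53, and the fl-CCs + EV were fl-CCs given the empty vector. All 4 groups thus share Pdx1-Cre, which acts in the pancreatic epithelium, and the activated K-ras allele. Each genotype was 1 cell line grown in 3 replicates, and p-values here speak of repeat cultures of a line, not of separate tumors. G418 at 0.6 mg per ml was in the medium of the transfected cells only, so vector and drug cannot be told apart where fl-CCs + EV are set against fl-CCs. Total RNA of the 12 samples was hybridized to Affymetrix mouse GeneChip arrays, and all values below are log2 RMA intensities, with the difference always the first-named group minus the second.

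The arrays had been brought to 1 distribution: the median was 5.59 on every array, and replicates of a group correlated at 0.994 to 0.996 over all probe sets. A value under 5 was taken as near background. Of the epithelial markers, 7 of 7 were measured and none lay under 5 on all arrays of a group. The lowest marker mean was 5.74 in mt-CCs, for Muc1, and 9.78 in fl-CCs, for Epcam. The 3 endothelial markers and 3 of 4 leukocyte markers, Ptprc, Cd3e and Laptm5, lay under 5 on all arrays of every group at their probe set of highest mean. At another probe set, 1436905_x_at, Laptm5 read 4.62, 4.98 and 5.33 in fl-CCs + p53 R175H and under 5 in all other groups. The remaining leukocyte marker, Cd68, averaged 7.66 in mt-CCs and 5.75 in fl-CCs. The lines also differed in differentiation: in mt-CCs, 6 of 7 epithelial markers were lower and 6 of 6 mesenchymal markers higher, set against fl-CCs (limma, adjusted p of 0.05 or less). The log2 of the summed epithelial level was 14.98 to 15.08 in mt-CCs and 15.67 to 15.74 in fl-CCs. That of the mesenchymal markers was 15.00 to 15.09 in mt-CCs and 14.35 to 14.44 in fl-CCs. Between fl-CCs + p53 R175H and fl-CCs + EV, 2 of 7 epithelial markers were higher and 2 lower, and 0 of 6 mesenchymal markers were called (limma, 1 lower at an unadjusted p under 0.05). The part of these markers in the differences of the members was not tested. Trp53 itself was not analysed here.

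Promoter windows of 3 members are shown first, because Traf1 and Birc3 are known NFκB targets and Tank was the member whose windows held a match to the NFκB consensus. They run from 250 bases before the annotated start to 50 bases after it, 5′ to 3′ in the direction of the gene, from RefSeq on GRCm38.p6. Capitals mark matches on either strand to the NFκB consensus, the AP-1 motif TGANTCA and the GC box GGGCGG. The Traf1 window is chr2:34961723-34962022 on the minus strand, the Birc3 window chr9:7873121-7873420 on the minus strand, and the Tank window chr2:61592847-61593146 on the plus strand.
Traf1: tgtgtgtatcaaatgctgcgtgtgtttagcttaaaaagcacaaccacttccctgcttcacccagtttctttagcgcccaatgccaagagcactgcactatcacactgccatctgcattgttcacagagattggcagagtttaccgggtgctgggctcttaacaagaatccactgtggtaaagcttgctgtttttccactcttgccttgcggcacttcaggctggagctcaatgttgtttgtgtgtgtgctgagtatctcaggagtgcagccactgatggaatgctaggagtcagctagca
Birc3: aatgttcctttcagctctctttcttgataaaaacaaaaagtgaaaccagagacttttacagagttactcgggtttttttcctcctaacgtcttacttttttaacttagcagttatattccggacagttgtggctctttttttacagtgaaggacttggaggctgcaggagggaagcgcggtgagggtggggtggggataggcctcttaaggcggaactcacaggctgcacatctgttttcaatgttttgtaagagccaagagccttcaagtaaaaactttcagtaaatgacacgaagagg
Tank: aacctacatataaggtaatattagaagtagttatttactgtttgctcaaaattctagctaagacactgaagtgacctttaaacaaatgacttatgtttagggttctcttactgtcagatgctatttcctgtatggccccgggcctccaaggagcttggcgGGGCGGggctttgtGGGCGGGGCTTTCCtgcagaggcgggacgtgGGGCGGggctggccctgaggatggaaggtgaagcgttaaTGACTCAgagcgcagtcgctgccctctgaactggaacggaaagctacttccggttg

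The Traf1 and Birc3 windows held no letter in capitals, that is, no match to any of the 3 motifs within these 300 bases. The Tank window held 3 GC boxes, an NFκB consensus match that began at base 179 and an AP-1 match that began at base 245. The NFκB match overlaps a GC box, and the pair reads as 1 run of capitals. All 4 annotated windows of Tank held the NFκB match or another one, and 2 of them held the AP-1 match. Among all 32851 windows in the table, 8.46% held an NFκB consensus match, 7.81% the AP-1 motif and 35.7% a GC box. Over the 12 windows of the 8 members, 1 member held the NFκB consensus, 1 the AP-1 motif and 6 a GC box, Traf1 and Birc3 being the exceptions. Base composition varied between members. The Traf1 window was 48.7% G and C with 4 CpG dinucleotides, and that of Birc3 43% with 7. The Traf2 window had 64% with 28, that of Traf4 68% with 33, and the median window of the table had 52.7% with 7.

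Between mt-CCs and fl-CCs, 4 of the 8 members were higher and 1 was lower at an adjusted p of 0.05 or less (limma, Benjamini-Hochberg over all probe sets, a gene standing for its probe set of smallest adjusted p). Traf1, Traf2, Traf5 and Birc2 rose and Traf4 fell, while Traf6, Birc3 and Tank did not pass. Of all 18193 genes, 22.2% were higher and 21.1% lower in the same comparison, so calls were frequent throughout. The median difference was 0.41 over the members and -0.01 over all genes, or 0.35 where each member stood for its probe set of highest mean.

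Between fl-CCs + p53 R175H and fl-CCs + EV, 5 members were higher and 2 lower, against 15.3% of all genes higher and 15.1% lower. Traf1, Traf2, Birc2, Birc3 and Tank rose, Traf4 and Traf5 fell, and Traf6 did not pass (limma). The median difference was 0.45 over the members and -0.03 over all genes. With each member at its probe set of highest mean the median was 0.37.

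Between fl-CCs + EV and fl-CCs, 2 members were lower and 0 higher, while 10.4% of all genes were higher and 9.20% lower. The members called were Traf2 and Tank (limma; 1 member was higher and 2 were lower at an unadjusted p under 0.05). This comparison uses the same EV arrays as the R175H comparison and the same fl-CC arrays as the mt-CC comparison. A value peculiar to the EV arrays therefore enters both of the comparisons that hold them, with opposite signs.

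**Figure D1:**
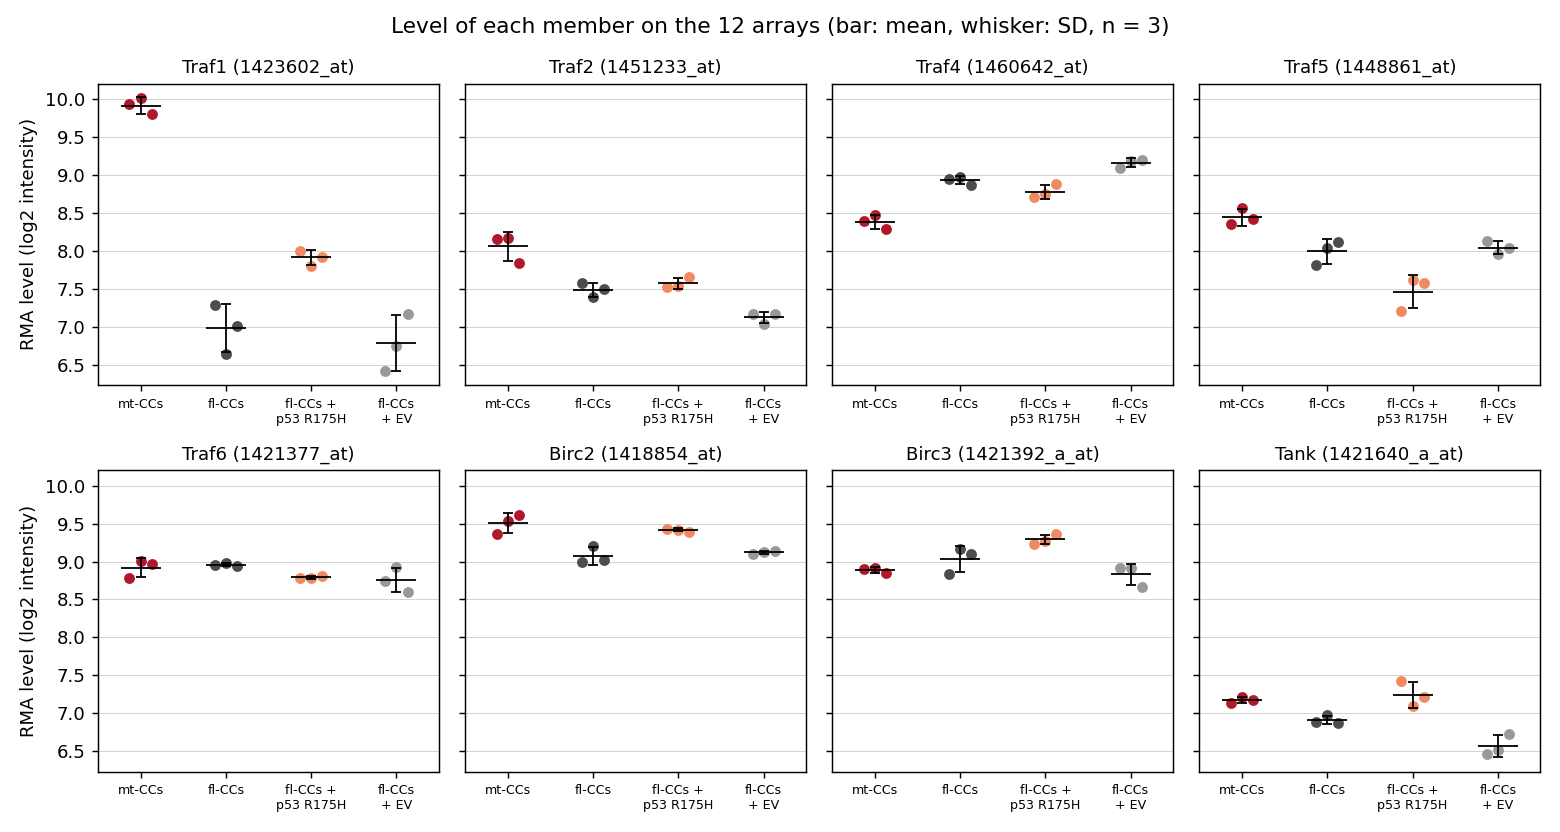
Log2 RMA level (vertical axis) of each member at its probe set of highest mean, by group; points are the 3 arrays of a group, bars the mean and whiskers the SD. Traf1 in mt-CCs (9.80 to 10.01) stands far above all other arrays, Traf4 is lowest in mt-CCs, and the Traf6 arrays of mt-CCs overlap those of fl-CCs.

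Traf1 showed by far the largest difference of the members. TRAF1 lacks the RING domain of the other TRAFs and binds TRAF2 and the cIAPs. At the probe set 1423602_at, the level was 9.93, 10.01 and 9.80 in mt-CCs, against 7.29, 6.64 and 7.01 in fl-CCs. All mt-CC arrays lay above all fl-CC arrays, by over 2 log2 units at the closest pair. The difference was 2.93 ± 0.19 (SE, n = 3 arrays per group, limma adjusted p = 1.22e-07), a 7.63-fold higher level.

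In the transfected cells Traf1 read 8.00, 7.80 and 7.92 in fl-CCs + p53 R175H and 6.42, 6.75 and 7.16 in fl-CCs + EV. The groups did not overlap, and the difference was 1.13 ± 0.19 (adjusted p = 0.00102, limma), or 2.19-fold. The arrays of fl-CCs + EV and of fl-CCs overlapped, with a difference of -0.20 ± 0.19 that did not pass (adjusted p = 0.573, limma). In descending order, mt-CCs averaged 9.91, fl-CCs + p53 R175H 7.91, fl-CCs 6.98 and fl-CCs + EV 6.78. Only fl-CCs and fl-CCs + EV overlapped among neighbours in that order. The mt-CC difference exceeded the R175H difference by 1.80 ± 0.26 (adjusted p = 0.000246, limma), a test of the difference itself over 4 groups that share no array between the 2 contrasts.

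The other Traf1 probe set, 1445452_at, was near background but ranked mt-CCs on top as well. It read 4.89, 5.08 and 5.45 in mt-CCs, against 2.84, 3.39 and 2.96 in fl-CCs. As all fl-CC arrays lay under 5, the difference is given as at least 0.14 (limma adjusted p of the fit 3.74e-06). All arrays of fl-CCs + p53 R175H and of fl-CCs + EV lay under 5, at means of 3.60 and 3.38, and no difference is given between them.

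Traf2 moved less and in the same direction in both settings. TRAF2 is the adaptor that docks the cIAPs on TNF receptors. It read 8.16, 8.17 and 7.84 in mt-CCs, against 7.58, 7.39 and 7.49 in fl-CCs. The third mt-CC array was the lowest of its group and still above every fl-CC array. The difference was 0.57 ± 0.10 (adjusted p = 0.000954, limma), 1.49-fold.

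With p53 R175H put in, Traf2 read 7.52, 7.54 and 7.65 in fl-CCs + p53 R175H, against 7.16, 7.04 and 7.17 in fl-CCs + EV. The groups were apart, with a difference of 0.45 ± 0.10 (adjusted p = 0.00844, limma). The EV arrays were also below the fl-CC arrays, by 0.36 on the log2 scale (adjusted p = 0.0403, limma), and this call was lost in 9 of 14 alternatives (highest adjusted p 0.131). The mean in fl-CCs + p53 R175H was 7.57 and that in untransfected fl-CCs 7.48, and their arrays overlapped. The 2 mutant p53 differences of Traf2 differed by 0.12 (adjusted p = 0.608, limma), with no call.

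Traf4 was the one member lower in both settings. TRAF4 differs from its relatives in that it is best known for cell polarity and migration rather than for TNF receptor signaling. At 1460642_at it read 8.39, 8.47 and 8.28 in mt-CCs, against 8.95, 8.97 and 8.87 in fl-CCs. At 1416571_at it read 6.65, 7.03 and 7.03 in mt-CCs, against 7.50, 7.65 and 7.43 in fl-CCs. At both probe sets every mt-CC array lay under every fl-CC array.
Traf4 fell by 0.55 on the log2 scale at the first (SE 0.08, adjusted p = 0.000327, limma) and by 0.62 at the second (SE 0.13, adjusted p = 0.00216, limma).

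At 1460642_at, Traf4 read 8.71, 8.74 and 8.88 in fl-CCs + p53 R175H, against 9.09, 9.18 and 9.20 in fl-CCs + EV. At 1416571_at it read 7.46, 7.48 and 7.29 in fl-CCs + p53 R175H, against 7.83, 7.71 and 8.04 in fl-CCs + EV. Both pairs of groups were apart, with differences of -0.38 ± 0.08 (adjusted p = 0.00693, limma) and -0.45 ± 0.13 (adjusted p = 0.0244, limma). The second call rested on single arrays: without fl-CCs + EV replicate 3 its adjusted p was 0.0978, without fl-CCs + p53 R175H replicate 3 it was 0.0922, and without fl-CCs + EV replicate 1 it was 0.0546. The EV arrays were the highest of all 12, above fl-CCs by 0.23 and 0.34, though neither difference passed (adjusted p = 0.106 and 0.114, limma). The arrays of fl-CCs + p53 R175H and of untransfected fl-CCs overlapped at both probe sets.

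Traf5 went opposite ways in the 2 settings. TRAF5 is a close relative of TRAF2 and shares its receptors. At 1448861_at it read 8.35, 8.56 and 8.42 in mt-CCs, against 7.81, 8.04 and 8.11 in fl-CCs, and the groups were apart. The difference was 0.46 ± 0.12 (adjusted p = 0.0128, limma), with an adjusted p of 0.0535 without fl-CCs replicate 1 and of 0.0521 without mt-CCs replicate 2.

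Traf5 read 7.21, 7.61 and 7.57 in fl-CCs + p53 R175H, against 8.13, 7.95 and 8.04 in fl-CCs + EV. Here the R175H arrays were the lower ones and again did not overlap the others, at a difference of -0.58 ± 0.12 (adjusted p = 0.00531, limma). The EV and fl-CC arrays overlapped, at means of 8.04 and 7.99. The difference of the 2 mutant p53 differences was 1.04 ± 0.17 (adjusted p = 0.000701, limma). The other Traf5 probe set, 1447682_x_at, lay under 5 on all 12 arrays and gives no difference.

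Traf6 had the most probe sets and no call. TRAF6 serves the Toll-like and interleukin 1 receptors and builds ubiquitin chains that activate the kinase TAK1. At its brightest probe set, 1421377_at, it read 8.78, 9.01 and 8.97 in mt-CCs, against 8.95, 8.98 and 8.94 in fl-CCs. It read 8.78, 8.78 and 8.81 in fl-CCs + p53 R175H, against 8.74, 8.93 and 8.60 in fl-CCs + EV. The arrays overlapped in both comparisons, and the differences were -0.04 ± 0.10 and 0.03 ± 0.10.

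At 1421376_at, Traf6 read 7.35, 7.04 and 7.28 in mt-CCs, against 7.36, 7.64 and 7.03 in fl-CCs. In the transfected cells it read 7.39, 7.26 and 7.39 with p53 R175H, against 7.20, 7.11 and 7.10 with EV, and neither comparison passed (adjusted p = 0.582 and 0.356, limma). A further probe set, 1435350_at, read 7.40, 7.22 and 7.70 in fl-CCs + p53 R175H, against 6.91, 7.01 and 7.04 in fl-CCs + EV. These groups were apart, yet the difference of 0.45 ± 0.15 missed the threshold (adjusted p = 0.0522, limma). It passed in 4 of 14 alternatives, at adjusted p from 0.0306, and reached 0.198 in others. The probe sets 1443288_at and 1446940_at were near background, with every group mean under 5. Between mt-CCs and fl-CCs the arrays overlapped at all 5 Traf6 probe sets.

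**Figure D2:**
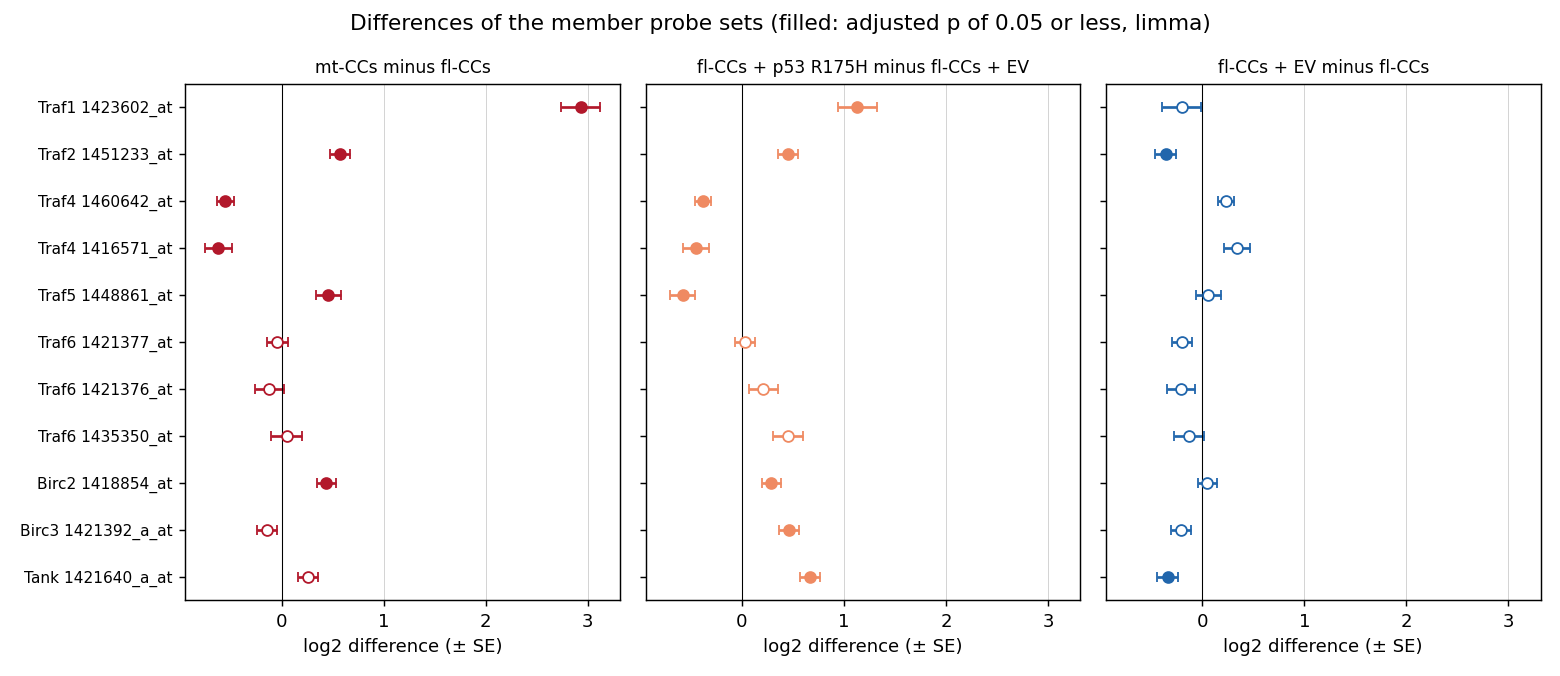
Log2 difference with its SE (horizontal axis) of each member probe set that lay at 5 or more on all arrays of some group, for 3 comparisons; filled points have an adjusted p of 0.05 or less. Traf1 leads in mt-CCs at 2.93, Traf5 changes side between the first 2 panels, and Birc3 and Tank are filled in the R175H panel and open in the mt-CC panel.

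The ligases Birc2 and Birc3 did not follow one pattern. cIAP1 and cIAP2 are closely related RING ubiquitin ligases that TRAF2 binds, and both take part in modifying RIPK1 at the TNF receptor. Birc2 (1418854_at) read 9.36, 9.54 and 9.61 in mt-CCs, against 8.99, 9.20 and 9.02 in fl-CCs. The groups were apart, and the difference was 0.44 ± 0.09 (adjusted p = 0.00269, limma), 1.35-fold.

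Birc2 read 9.43, 9.42 and 9.39 in fl-CCs + p53 R175H, against 9.10, 9.13 and 9.14 in fl-CCs + EV. These were the tightest replicates of any member called in that comparison, and the groups did not overlap. The difference was 0.29 ± 0.09 (adjusted p = 0.0393, limma), but it passed in only 6 of 14 alternatives. Leaving out any 1 of the 6 arrays lost the call, at adjusted p of 0.0798 without fl-CCs + p53 R175H replicate 3 to 0.105 without fl-CCs + EV replicate 1. Both Birc2 differences were upward, and they differed by 0.14 (adjusted p = 0.482, limma). The EV and fl-CC arrays overlapped at means of 9.12 and 9.07.

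With all arrays, Birc3 passed the test in the transfected cells and not in the endogenous lines. At 1421392_a_at it read 8.90, 8.92 and 8.85 in mt-CCs, against 8.84, 9.16 and 9.10 in fl-CCs. The arrays overlapped, with a difference of -0.14 ± 0.10 (adjusted p = 0.354, limma).
It read 9.23, 9.27 and 9.36 in fl-CCs + p53 R175H, against 8.91, 8.91 and 8.66 in fl-CCs + EV, and every R175H array was above every EV array. That difference was 0.46 ± 0.10 (adjusted p = 0.00796, limma). The mt-CC difference lay below the R175H difference by a tested -0.60 ± 0.15 (adjusted p = 0.00879, limma). The other Birc3 probe set, 1425223_at, had every group mean under 5, and Birc3 was called higher in mt-CCs through it when mt-CCs replicate 1 was left out.

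Older symbols of Birc2 and Birc3 overlap in the RefSeq table. The probe sets 1418854_at and 1421392_a_at carry annotation accessions that the table gives as transcripts of Birc2 and of Birc3, so these 2 readings do not rest on the symbol alone. For Traf1, Traf2 and Traf6 the annotation accession of each probe set was not a RefSeq transcript in that table.

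Tank, the TRAF family member-associated NFκB activator, binds TRAFs and links the kinases TBK1 and IKKε to them. At 1421640_a_at it read 7.42, 7.09 and 7.21 in fl-CCs + p53 R175H, against 6.46, 6.52 and 6.73 in fl-CCs + EV. The groups were apart, and the difference was 0.67 ± 0.10 (adjusted p = 0.000638, limma), 1.59-fold. It read 7.13, 7.21 and 7.18 in mt-CCs, against 6.89, 6.98 and 6.87 in fl-CCs. Those groups were apart as well, but the difference of 0.26 ± 0.10 did not pass (adjusted p = 0.0759, limma).

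The EV arrays were the lowest of the 4 groups for Tank. They lay below fl-CCs by 0.34 on the log2 scale (adjusted p = 0.049, limma), and this call was lost in 9 of 14 alternatives (highest adjusted p 0.163). The R175H mean of 7.24 stood beside a fl-CC mean of 6.91. The 2 mutant p53 differences differed by -0.41 ± 0.15, which missed the threshold (adjusted p = 0.0568, limma). The second Tank probe set, 1441513_at, was at the edge of background with group means of 4.94 in mt-CCs, 5.01 in fl-CCs, 4.91 in fl-CCs + p53 R175H and 4.78 in fl-CCs + EV, and had no call.

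The 2 mutant p53 differences of a member could be tested against each other, since mt-CCs and fl-CCs share no array with fl-CCs + p53 R175H and fl-CCs + EV. The mt-CC difference was above the R175H difference for Traf1 and Traf5 and below it for Birc3. Over all genes, 20.1% were above and 19.3% below in this test. The other 5 members did not pass, at differences of differences of 0.12 for Traf2, -0.16 for Traf4 (1460642_at), -0.07 for Traf6 (1421377_at), 0.14 for Birc2 and -0.41 for Tank.

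Of the other IAPs and their antagonists, 7 of 8 listed genes were measured. In mt-CCs 3 of them were above fl-CCs and 2 below, with a median difference of -0.00, to be read beside the 22.2% and 21.1% of all genes. Birc5 (survivin, an IAP of dividing cells) rose by 0.67 and the IAP antagonists Septin4, through its ARTS isoform, and Htra2 by 0.67 and 0.40. Birc6, a giant IAP that conjugates ubiquitin, and Xiap, the direct caspase inhibitor, fell, with differences of -0.72 and -0.62. Birc6 lay close to background in all groups. Its means were 5.06 in mt-CCs, 5.78 in fl-CCs, 5.45 in fl-CCs + p53 R175H and 5.06 in fl-CCs + EV.

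The same list in fl-CCs + p53 R175H gave 4 higher and 0 lower than in fl-CCs + EV, with a median of 0.46 (limma, with 4 and 0 at an unadjusted p under 0.05). The shares of all genes were 15.3% higher and 15.1% lower. Xiap rose by 0.70, at a different probe set, and Birc6 by 0.39 there, opposite to their direction in mt-CCs. The difference of differences was -1.27 for Xiap (adjusted p = 5.26e-05, limma) and -1.11 for Birc6 (adjusted p = 0.000252, limma). Between fl-CCs + EV and fl-CCs, 4 of the 7 were lower, beside 9.20% of all genes. Birc6 differed by -0.72 ± 0.11 there (adjusted p = 0.00152, limma).

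Among the partners of TRAFs and cIAPs in TNF receptor complexes, 21 of 23 listed genes were measured. In mt-CCs 8 were higher and 4 lower, with a median of 0.20, beside 22.2% and 21.1% of all genes. Ube2n, the E2 enzyme with which TRAF6 builds its chains, rose most at 1.77 ± 0.12 (adjusted p = 1.94e-07, limma), followed by the caspase-8 regulator Cflar at 0.74 and the IκB kinase scaffold Ikbkg at 0.51 (1454690_at). Among those that fell, the ubiquitin-editing enzymes Tnfaip3 and Cyld differed by -0.79 and -0.62 and the kinase Map3k7 (TAK1) by -0.63 at 1425795_a_at. The brighter Map3k7 probe set, 1455441_at, did not fall, at means of 8.32 in mt-CCs and 8.21 in fl-CCs. In fl-CCs + p53 R175H, 7 were higher and 6 lower than in fl-CCs + EV, beside 15.3% and 15.1% of all genes. The median was 0.11. Tnfaip3 rose by 0.32 there, while Ube2n fell by 0.51. The EV arrays of Ube2n were themselves above fl-CCs by 0.71 (adjusted p = 0.00201, limma). Ube2n averaged 6.88 in fl-CCs + p53 R175H, 7.38 in fl-CCs + EV and 6.67 in fl-CCs. At 1454690_at Ikbkg averaged 10.26 in fl-CCs + p53 R175H and 9.78 in fl-CCs + EV, the same direction as in mt-CCs. At another probe set, 1421209_s_at, it rose by 0.86 in fl-CCs + p53 R175H. That probe set averaged 9.11 in mt-CCs and 9.27 in fl-CCs, with a difference of differences of -1.02 (adjusted p = 6.27e-05, limma).

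The noncanonical NFκB and TBK1 arm had 8 of 8 genes measured. In mt-CCs 2 were higher and 1 lower, with a median of 0.13, beside 22.2% and 21.1% of all genes. Nfkb2 at 0.46 ± 0.10 and Tbk1 at 0.26 ± 0.09 were the higher ones and Irf3 at -0.70 ± 0.10 the lower. In fl-CCs + p53 R175H, 2 were higher than in fl-CCs + EV and 1 lower, beside 15.3% and 15.1% of all genes. Relb rose by 0.40 and Irf3 by 0.33. Map3k14, the NFκB-inducing kinase that the TRAF and cIAP complex holds low as a protein, fell by 0.69 on the log2 scale. The EV arrays of Map3k14 were above fl-CCs by 0.46 (adjusted p = 0.00885, limma). Map3k14 averaged 6.10 in fl-CCs + p53 R175H, 6.79 in fl-CCs + EV and 6.33 in fl-CCs.

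Receptors and receptor-proximal proteins that use TRAFs gave 27 measured genes of 28, with 9 higher and 3 lower in mt-CCs and a median of 0.26. Tnfrsf9 (4-1BB), a receptor that binds TRAF1 and TRAF2, rose by 2.61 ± 0.22 and Tlr4 by 2.45 ± 0.15, and Il1rap rose by at least 1.37, fl-CCs being near background. Il1r1 fell by 1.16 on the log2 scale, Irak2 by 0.57 and Tnfrsf12a by 0.41. In fl-CCs + p53 R175H, 5 were higher and 3 lower than in fl-CCs + EV, beside 15.3% and 15.1% of all genes. The median was 0.06. Tlr4 and Tlr2 were each higher there by 1.07. For Tlr4 (1418162_at) the EV arrays were below fl-CCs, at a difference of -1.30 (adjusted p = 0.000182, limma). Its mean of 7.79 in fl-CCs + p53 R175H stayed under the 8.02 of fl-CCs. Tlr2 averaged 7.77 in fl-CCs + p53 R175H and 6.84 in fl-CCs, and its EV difference of -0.14 did not pass (adjusted p = 0.604, limma).

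Of 22 listed NFκB-induced genes other than the members, 20 were measured. In mt-CCs 11 were higher and 4 lower, with a median of 0.44, beside 22.2% and 21.1% of all genes. The study had picked Nfkbia, Cxcl1 and Tnfrsf9 on these same arrays, so counts of the lists that hold them are not independent evidence of a direction. It then added further genes of the pathway for being higher in mt-CCs. Its methods do not name them, and they may include other listed genes or members. The chemokine Ccl2 rose by 4.69 ± 0.20, the iron-binding protein Lcn2 by 3.30 ± 0.28 and Ccl5 by at least 2.50, while the chemokine Ccl20 fell by 3.17, the adhesion molecule Icam1 by 1.12 and Tnfaip3 by 0.79 on the log2 scale.
In fl-CCs + p53 R175H, 12 were higher and 1 lower than in fl-CCs + EV, beside 15.3% and 15.1% of all genes. The median was 0.36. Between fl-CCs + EV and fl-CCs, 10 of the 20 were lower and 1 was higher, with a median of -0.33. The shares of all genes were 9.20% lower and 10.4% higher. The EV arrays that enter the R175H comparison were thus themselves below fl-CCs for this list. Traf2 and Tank were the 2 members called lower in fl-CCs + EV, and a link to that list was not tested. Traf1 at -0.20 and Birc3 at -0.21 were not called there (adjusted p = 0.573 and 0.251, limma).

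**Figure D3:**
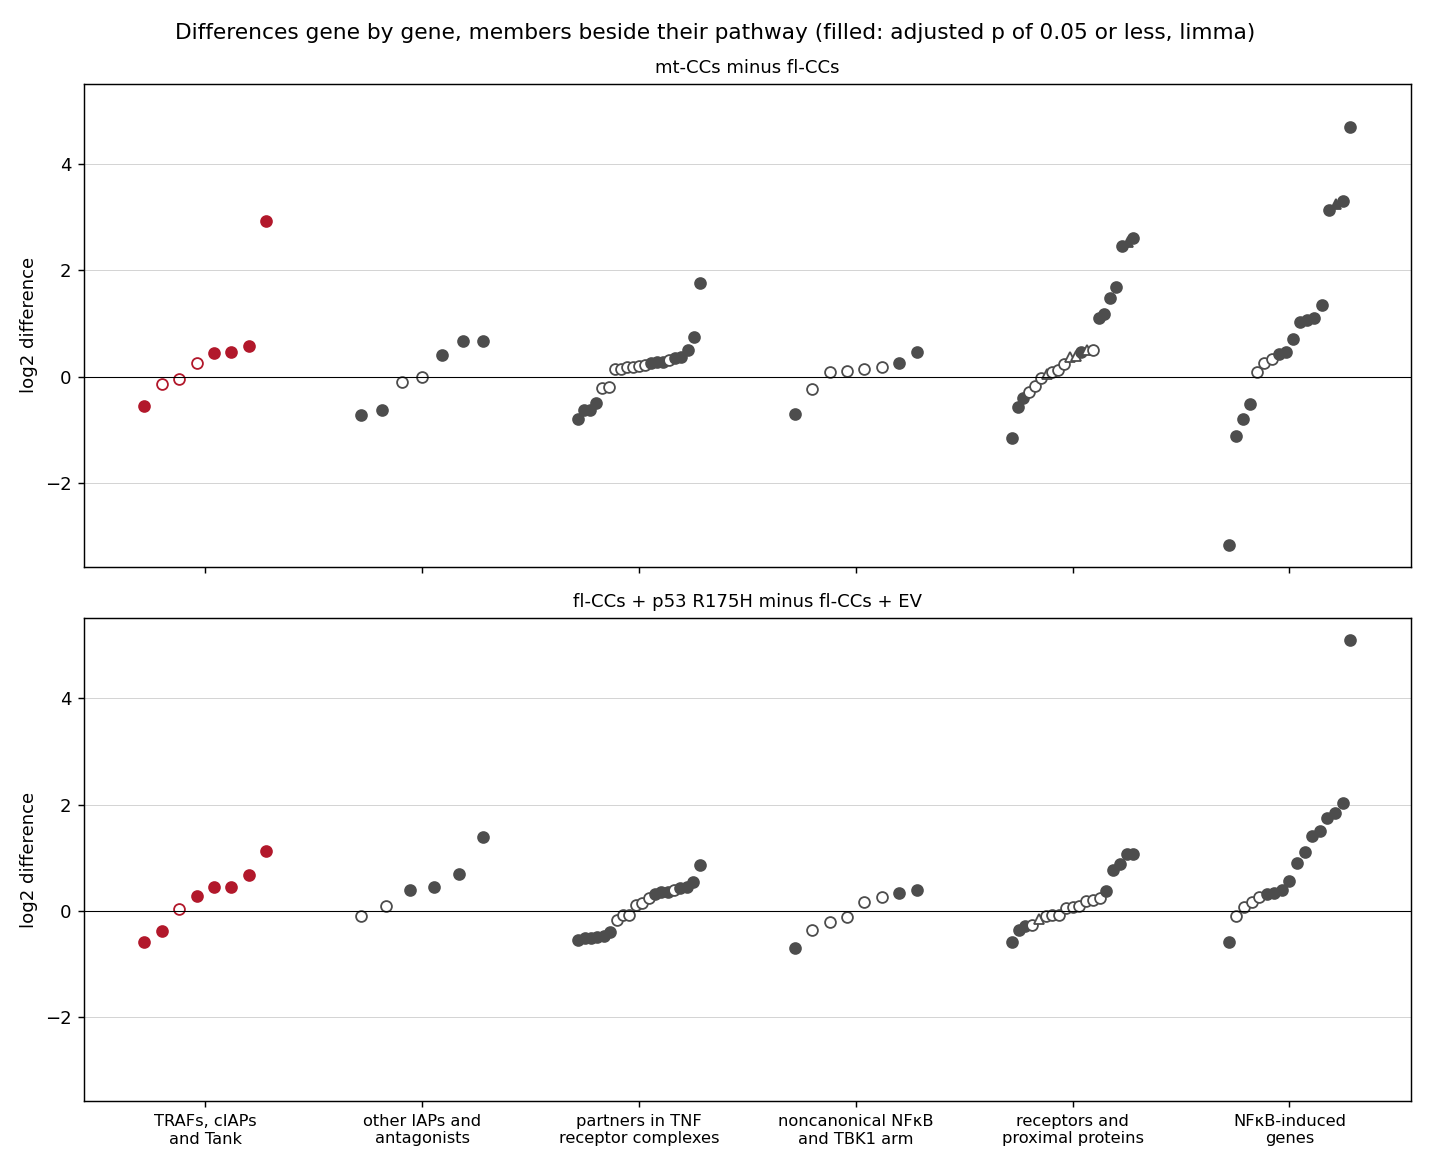
Log2 difference (vertical axis) of each gene in 6 lists, sorted within a list, for mt-CCs against fl-CCs (upper panel) and fl-CCs + p53 R175H against fl-CCs + EV (lower panel). Members stand at their probe set of highest mean and other genes at that of smallest adjusted p; filled symbols are called, triangles had 1 group under 5 on all arrays, and genes under 5 in both groups are left out. Traf1, at 2.93 in the upper panel and 1.13 in the lower, stands above the other members in both.

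Birc2 and Birc3 are neighbours on chromosome 9 in the RefSeq annotation of GRCm38.p6, with Yap1 next to Birc3 and a cluster of matrix metalloproteinases on the far side of Birc2. Of 18 listed neighbours, 16 were measured. In mt-CCs 4 were higher and 2 lower, with a median of 0.11, beside 22.2% and 21.1% of all genes. Of the 4, Trpc6 lay under 5 on all arrays, at overlapping values with means of 2.42 in mt-CCs and 1.99 in fl-CCs. Yap1 is a transcriptional coactivator known to be amplified together with the cIAP genes in some tumors. At 1448363_at Yap1 read 0.19 ± 0.09 higher in mt-CCs without passing (adjusted p = 0.113, limma). At 1416487_a_at Yap1 averaged 7.82 in mt-CCs and 7.94 in fl-CCs. Tmem123 rose by 0.78 ± 0.13 and Mmp3 by 1.54 ± 0.28, while Mmp13 fell (-2.60) and Mmp10 did too (-2.07).

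For the transfected cells, 4 neighbours were higher in fl-CCs + p53 R175H and 1 lower than in fl-CCs + EV, with a median of 0.05. The shares of all genes were 15.3% higher and 15.1% lower. Mmp13 rose by 3.99 and Mmp10 by 3.52 there, against the direction in mt-CCs, while Birc2 was called higher in both settings and Birc3 in the transfected cells. Yap1 rose by 0.37 at 1416487_a_at (adjusted p = 0.0362, limma), and at 1448363_at it averaged 11.71 in fl-CCs + p53 R175H and 11.45 in fl-CCs + EV. Mmp13 read under 5 on 2 of 3 arrays in mt-CCs and in fl-CCs + EV, and Mmp10 on 2 of 3 in mt-CCs. Directions of the genes in the segment varied, and whether the segment was amplified in any line was not tested.

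**Figure D4:**
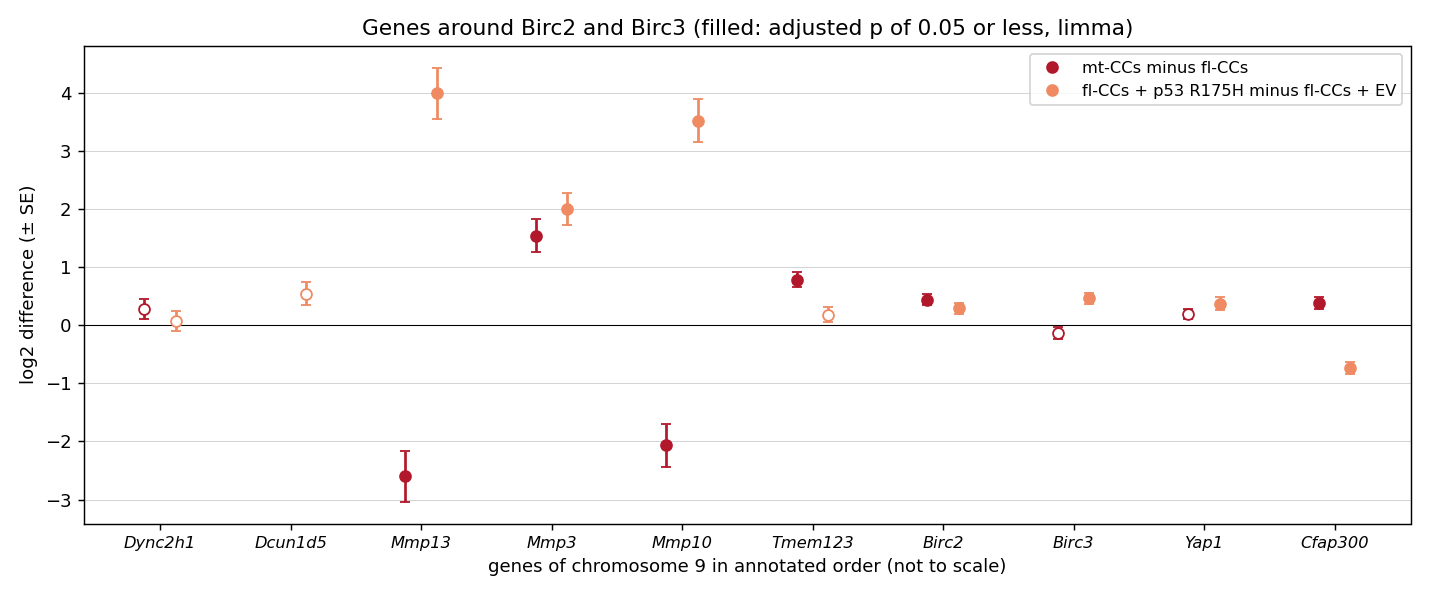
Log2 difference with its SE (vertical axis) of the genes around Birc2 and Birc3, in annotated gene order and not to scale, for 2 comparisons. Genes are left out where all arrays of both groups lay under 5, and filled points have an adjusted p of 0.05 or less (limma). Dcun1d5 is drawn in the R175H comparison though near background, at means of 4.99 in fl-CCs + p53 R175H and 4.45 in fl-CCs + EV. Birc2, Birc3 and Yap1 lie between -0.14 and 0.46, whereas Mmp13 spans -2.60 in the mt-CC comparison to 3.99 in the R175H comparison.

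The genes whose levels followed a member most closely over the 12 arrays were looked up among 22712 probe sets with a mean of at least 5. The 12 arrays fall into 4 groups, so these Pearson correlations mostly describe shared group means and carry no test. For Traf1 they were Rbm43 at 0.990, Pdzrn3 at 0.988 and Fstl1 at 0.988. Fstl1 averaged 12.86 in mt-CCs, 4.76 in fl-CCs, 6.61 in fl-CCs + p53 R175H and 4.37 in fl-CCs + EV, the same order as Traf1. For Birc2 they were Mpv17 at 0.961, Ngdn at 0.958 and Masp1 at 0.955, and for Birc3 Endod1 at 0.956, Fbxo3 at 0.942 and Fign at 0.940. Fign averaged 5.50 in mt-CCs, 6.11 in fl-CCs, 7.24 in fl-CCs + p53 R175H and 4.93 in fl-CCs + EV, highest in the R175H cells as Birc3 was.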

How the data were processed

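Total RNA from 12 cultures (4 groups of 3) was hybridized to Affymetrix mouse GeneChip arrays. The authors checked the arrays with the affy package, summarized and normalized them by RMA and deposited log2 values, which were used as given and have no negative or missing entries. Per the labels the tool was RMA; versions were not given in the sources used here. RMA sets all arrays to 1 distribution, so a shift common to all genes cannot be seen. Of 45101 probe sets, 64 controls were left out; 34945 had 1 symbol in the platform annotation, 932 several and 9160 none, and only the first kind was named. Group means were fitted over all 12 arrays with limma 3.58.1 (R 4.3.3), with Benjamini-Hochberg adjustment over 45037 probe sets and calls at an adjusted p of 0.05 or less. The code was tested on simulated data. A gene stood for its probe set of smallest adjusted p, as in the study's methods. A difference from a group with 3 arrays under 5 is a bound against 5; where both groups lay there, none is given. Every member and probe set is named; of each list up to 3 genes that rose most and 3 that fell most in mt-CCs are named, ranked by the fitted difference even where only a bound is printed (Ccl5, Il1rap), other genes having been picked after their values were seen. The members and lists were chosen with earlier results of these data known. Naip1, Ripk1, Chuk, Irak4, Nfkb1, Bcl2a1d, Angptl5 and Mmp27 were not analysed here. The number of arrays limits the precision.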

Additional observations from a re-analysis of the deposited data

Results flagged for a closer look

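Differences of some members between mt-CCs and fl-CCs were not the same as those between fl-CCs + p53 R175H and fl-CCs + EV, by a test of the difference itself (limma, adjusted over all probe sets). The Traf1 difference in the endogenous lines was larger by 1.80 at 1423602_at, where every mt-CC and every R175H array lay above its own control arrays. At 1445452_at no such value is given, as all arrays of fl-CCs + p53 R175H and fl-CCs + EV lay near background there. Traf5 gave 1.04 at 1448861_at, with all 3 mt-CC arrays above fl-CCs and all 3 R175H arrays below fl-CCs + EV. Birc3 gave -0.60 at 1421392_a_at, with all 3 R175H arrays above fl-CCs + EV and overlapping arrays in mt-CCs and fl-CCs. The 2 settings differ in the species of the p53 protein, in the vector and drug, and in the line, and these cannot be told apart.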

How the results depend on the processing

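Traf1 kept its direction and call in mt-CCs and in fl-CCs + p53 R175H under all alternatives, with differences of 2.76 to 3.09 and 0.95 to 1.32. Asking for a log2 difference of at least 1 left 3742 probe sets in the mt-CC comparison, 1552 in the R175H comparison, 1049 between fl-CCs + EV and fl-CCs and 5015 in the difference of differences. Under it 1 member was left in the mt-CC comparison and 1 in the R175H comparison, Traf1 each time, and 0 between fl-CCs + EV and fl-CCs. The 2 members called between fl-CCs + EV and fl-CCs, Traf2 and Tank, became 0 in a fit of only the arrays compared, 1 with an intensity trend, and 0 to 1 when 1 array was left out, the 1 being Tank without fl-CCs + EV replicate 3. Replicate numbers did not pair the arrays (correlations of same-numbered arrays -0.0862 to 0.0357). With the replicate block, 13288, 8527, 4774 and 11563 probe sets were called in the 4 comparisons, Birc2 was lost in the R175H comparison (adjusted p = 0.0525), and 0 members were called between fl-CCs + EV and fl-CCs. Of the single-probe-set values, 723 held direction and call, 43 lost the call, 9 gained it and 10 changed sign. These counts partly follow from the settings. The limit of 1 takes the call from every called difference under 1, whatever its precision. Quantile normalization and median centring could change little in arrays already on 1 distribution. The same settings enter the counts of alternatives given above for single members. The sign changes were of differences near 0, all with 1 array left out. With arrays left out, mt-CCs minus fl-CCs ran from -0.28 to 0.03 for Traf6 1421376_at, from -0.08 to 0.03 for 1421377_at and from -0.06 to 0.20 for 1435350_at, and from -0.22 to 0.06 for Tank 1441513_at. At Traf6 1421377_at the R175H comparison ran from -0.04 to 0.12 and the difference of differences from -0.16 to 0.00. Between fl-CCs + EV and fl-CCs, Traf5 1448861_at ran from -0.03 to 0.12 and Traf6 1435350_at from -0.24 to 0.02. Adjusting only over probe sets with a mean of at least 5 added Tank in the mt-CC comparison (adjusted p = 0.0414), Traf6 in the R175H comparison, Traf4 between fl-CCs + EV and fl-CCs, and Tank in the difference of differences. Leaving out mt-CCs replicate 1 added Birc3 as higher in the mt-CC comparison, through 1425223_at, whose group means all lay under 5; at 1421392_a_at it was not called there. Probe sets with every group mean under 5 entered these counts of members but not the single-probe-set values.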
